A study of Mus musculus with 12 samples.

Results

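The comparison described here was the tissue by sepsis interaction in sorted mouse megakaryocytes (MKs). For each gene, the change from saline to sepsis in bone marrow (BM) MKs was taken minus the change in splenic MKs, on the log2 scale. A positive value means that the change in BM was higher than the change in spleen, and a negative value means that it was lower. The count table held 55536 genes, all of which belonged to the comparison, and 20263 of them had enough reads to be tested. All 12 libraries were used, 3 in each of the 4 groups (BM after saline, BM after sepsis, spleen after saline and spleen after sepsis). MKs were sorted on day 5 from C57BL/6 mice carrying Pf4-Cre and a Cre-dependent tdTomato reporter, as CD45+ Tom+ CD41+ CD42b+ cells negative for markers of other lineages, and 300 cells went into each library. Sepsis was a nonlethal intraperitoneal injection of cecal slurry (CS, gut content that carries live bacteria), the control mice received saline, and all 4 groups carried the same reporter. The mice were young adults of both sexes. In this reporter the Pf4 promoter drives Cre, so recombination marks any cell in which that promoter has been active and all descendants of that cell. Nothing in the sources says which libraries shared a mouse, and the spread used by the tests is that between these libraries.

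MKs are the large polyploid cells that shed platelets. Most of them mature in the BM under thrombopoietin, and a smaller number are found in the spleen, an organ filled mainly with B cells, T cells and macrophages. The transcription factors GATA1, NFE2 and TAL1 drive MK maturation and the genes of platelet granules and adhesion receptors. Sepsis raises the output of myeloid cells from the BM and the spleen, and the spleen can then host the formation of MKs. The comparison asks whether MKs of both organs responded to sepsis alike.

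No gene passed an adjusted p of 0.05 for the interaction in edgeR (0% of 20263 genes), and the smallest adjusted p was 0.0764, shared by Pecr and Rfc5. At an unadjusted p under 0.05 there were 862 genes with a positive interaction (4.25%) and 694 with a negative one (3.42%), together 7.68%. DESeq2 called 470 of 19389 genes (2.42%), with 274 positive (1.41%) and 196 negative (1.01%), and limma-voom with quality weights called 0. Among the tested genes 9825 had a positive interaction (48.5%) and 51.5% a negative one, and the median over all of them was -0.07. The change in the spleen alone gave 12 called genes that rose after sepsis (0.0592%) and 20 that fell (0.0987%), 32 in all (0.158%), with 5.25% of genes higher and 7.83% lower at an unadjusted p under 0.05. The change in BM alone gave 0 called genes, with 194 higher (0.957%) and 523 lower (2.58%) at an unadjusted p under 0.05 (3.54% together) and 220 called by DESeq2. By sign alone the fitted level after sepsis was lower in 53.5% of genes in BM and 51.9% in spleen, and higher in 45.9% and 47.4%. The median size of the fitted log2 change was 0.74 in BM and 1.29 in spleen, and the changes had opposite signs in 9074 genes (44.8%).

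The precision was low. The median SE of the interaction was 2.77 log2 units, and the SE was under 1 in 2270 genes (11.2%). The common dispersion corresponded to a biological coefficient of variation of 143%. Libraries held 7756762 to 27386184 counts, and correlations of log2 CPM (normalised read counts relative to the library total, scaled with TMM factors) between libraries of the same group ran from 0.522 to 0.870. Where a gene had a count of 0, as many as 3 counts remain possible (0.105 to 0.405 CPM across libraries), which is a limit from counting error alone. Pf4, the chemokine platelet factor 4 whose promoter drives the reporter, was found in every library, at 9606 to 30581 CPM in BM and 476 to 2439 CPM in spleen. The splenic libraries also held many reads of other lineages: plasma cell genes summed to 47154 to 80883 CPM after saline and 8021 to 36184 CPM after sepsis, against 1602 to 3761 and 1285 to 2506 CPM of MK and platelet genes. Jchain alone reached 80009 CPM, and no other plasma cell gene of the list exceeded 809 CPM in any library. Spleen values are therefore levels in the sorted libraries, and which cells carried them was not tested. Some libraries stood apart from the others of their group. Both spleen libraries numbered 1 were high in neutrophil genes. BM sepsis replicate 1 had the highest summed level of MK and platelet genes (50806 CPM against 12634 and 16733 in the other BM sepsis libraries). Spleen sepsis replicate 3 had 4741 CPM of reads from the mitochondrial genome, against 42814 and 48150 CPM in the other spleen sepsis libraries. These sums rest on 8 of 13 mitochondrial genes, since the others were at 0 in all 12 libraries.

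**Figure D1:**
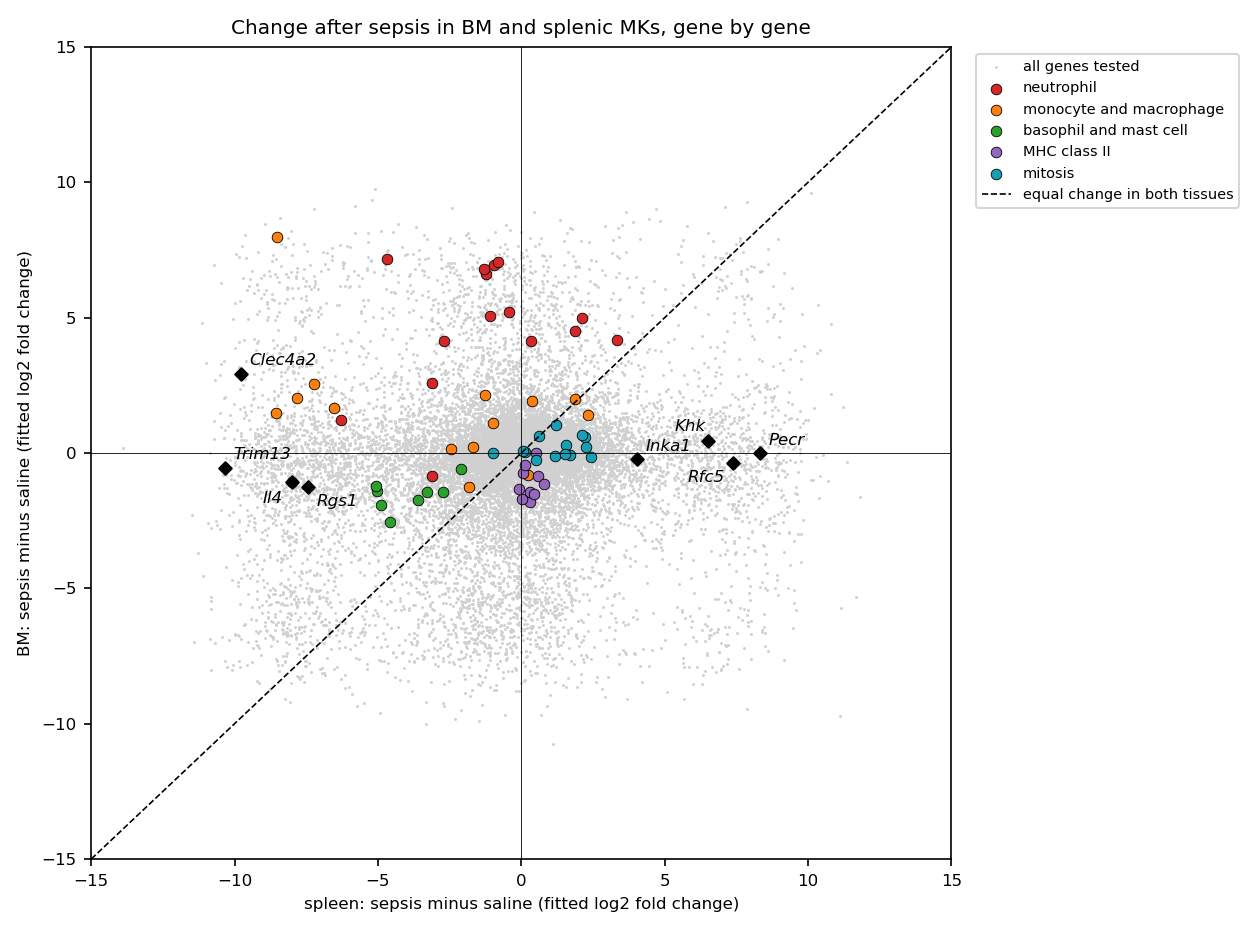
Fitted log2 fold change from saline to sepsis in splenic MKs (horizontal axis) against that in BM MKs (vertical axis), 1 point per tested gene, with 5 gene lists in colour and 8 named genes as diamonds. The dashed line marks equal change, and the distance above or below it is the interaction: Pecr and Rfc5 rose in spleen by 8.32 and 7.38 log2 units with BM changes of 0.01 and -0.36, and Il4 and Rgs1 fell by 7.99 and 7.44 with BM changes of -1.08 and -1.25.

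The genes with the smallest interaction p among protein-coding genes of at least 20 CPM in 1 group had smaller fitted changes in BM than in the spleen. In the positive direction the first 8 were Clec4a2, Il4, Trim13, Rgs1, Ptger3, Rapsn, Id1 and Arrdc4. All 8 fell in the spleen after sepsis, to under 10 CPM in every library, while in BM none of them was called. These genes were ranked on an interaction that includes the spleen libraries, so the count in the spleen describes them and is no separate test.

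Il4 (ENSMUSG00000000869, chr11:53602982-53618669, GRCm38) encodes interleukin 4, a cytokine of type 2 immunity made by basophils, mast cells and helper T cells. It was at 35.0, 131 and 33.6 CPM in the BM saline libraries and at 28.2, 40.4 and 26.2 CPM after sepsis. In the spleen it was at 227, 75.6 and 12.6 CPM after saline and at 0.822, 0.112 and 0.194 CPM after sepsis. The BM groups overlapped and the spleen groups did not. Il4 fell by 7.99 on the log2 scale in the spleen (adjusted p = 0.0127), the fitted change in BM was -1.08 (adjusted p = 1.0), and the interaction was 6.92 ± 1.41 (SE, adjusted p = 0.234).

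Rgs1 (ENSMUSG00000026358, chr1:144242296-144249242) encodes a regulator of G protein signalling that dampens the response of leukocytes to chemokines. It was at 295, 418 and 184 CPM in BM after saline and 226, 97.9 and 54.4 CPM in BM after sepsis. In the spleen it was at 958, 1682 and 21.1 CPM after saline and 8.33, 2.91 and 3.98 CPM after sepsis. Rgs1 fell by 7.44 log2 units in the spleen (adjusted p = 0.0127), and the interaction was 6.19 ± 1.34 (adjusted p = 0.246). Spleen saline replicate 3 was the lowest library of its group for Il4, Rgs1, Ptger3, Id1 and Arrdc4, and it still lay above every spleen sepsis library for each of these 5 genes.

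Ptger3 (chr3:157566892-157645888), which encodes the prostaglandin E2 receptor EP3, was at 28.4 to 51.3 CPM in BM after saline and 23.4 to 37.4 CPM in BM after sepsis. Its spleen libraries held 69.7, 41.9 and 4.61 CPM after saline and 0.257, 0.336 and 0.582 CPM after sepsis. The interaction was 6.09 ± 1.35 (adjusted p = 0.302). Id1 (chr2:152736251-152737410), an inhibitor of basic helix-loop-helix transcription factors, was at 9.26 to 124 CPM in BM after saline and 16.8 to 63.2 CPM in BM after sepsis. Its spleen libraries held 262, 101 and 22.4 CPM after saline and 0.308, 0.112 and 2.14 CPM after sepsis, with an interaction of 6.59 ± 1.60 (adjusted p = 0.394). Rapsn (chr2:91035620-91045729), known for anchoring acetylcholine receptors at the neuromuscular junction, was at 4.32, 73.3 and 29.7 CPM in the spleen after saline and at 0.206 to 0.582 CPM after sepsis. In BM it was at 23.2 to 91.1 CPM after saline and 18.3 to 80.6 CPM after sepsis, and the interaction was 6.58 ± 1.48 (adjusted p = 0.302). The BM groups overlapped for these 3 genes.

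For Clec4a2, Trim13 and Arrdc4 the spleen sepsis libraries together held 3 counts or fewer, so the change in the spleen is given as a ratio of summed counts with a 95% exact interval for counting error. Clec4a2 (chr6:123106428-123143999), an inhibitory C-type lectin receptor of myeloid cells with close relatives in the same gene cluster, was 1113-fold lower in the spleen after sepsis (interval 199 to 44021). It was at 2.23, 2.19 and 2.69 CPM in BM after saline and at 7.24, 16.7 and 30.3 CPM in BM after sepsis, so every BM sepsis library lay above every BM saline library while the spleen libraries were ordered the other way (64.6, 1.16 and 36.3 CPM after saline against 0, 0 and 0.0971 CPM after sepsis). Over all tested genes 41 had that arrangement of libraries (0.202%), and 32 had the opposite one (0.158%). Trim13 (chr14:61598247-61605946), an E3 ubiquitin ligase of the endoplasmic reticulum, was at 52.2, 65.3 and 8.90 CPM in the spleen after saline and 1691-fold lower after sepsis (interval 303 to 66854). Arrdc4 (chr7:68736995-68749241), an arrestin-domain protein linked to glucose uptake, was 415-fold lower in the spleen after sepsis (interval 142 to 2018). Their BM libraries overlapped, at 2.80 to 18.4 CPM after saline and 0.877 to 11.6 CPM after sepsis for Trim13, and at 16.6 to 40.2 and 7.06 to 20.9 CPM for Arrdc4. The adjusted p of the interaction was 0.171 for Clec4a2, 0.246 for Trim13 and 0.394 for Arrdc4.

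In the negative direction the first 8 were Pecr, Rfc5, A830005F24Rik, Inka1, D6Wsu163e, Per3, Khk and Actl6a. Of these, 6 rose in the spleen after sepsis (A830005F24Rik and Actl6a were not called there) from under 3 CPM in every saline library. None of the 8 was called in BM. They too were ranked on an interaction that includes the spleen libraries, so the count in the spleen is no separate test.

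Pecr (ENSMUSG00000026189, chr1:72259167-72284314) encodes a peroxisomal enoyl-CoA reductase of fatty acid elongation. It was at 22.3, 31.9 and 42.9 CPM in BM after saline and 46.2, 32.3 and 19.02 CPM in BM after sepsis. In the spleen it was at 0, 0.165 and 0.322 CPM after saline, which were 0, 2 and 3 counts, and at 61.6, 75.1 and 33.7 CPM after sepsis. The BM change was 0.01 and the rise in the spleen was 8.32 log2 units (adjusted p = 0.00667), with an interaction of -8.31 ± 1.34 (adjusted p = 0.0764). Rfc5 (ENSMUSG00000029363, chr5:117378103-117389047), a subunit of the replication factor C clamp loader, had the same arrangement. It was at 20.7 to 55.6 CPM in BM after saline, 19.5 to 50.2 CPM in BM after sepsis, 0.165 to 0.270 CPM in the spleen after saline (2 counts in each library) and 19.8, 53.0 and 38.7 CPM in the spleen after sepsis. It rose in the spleen by 7.38 log2 units (adjusted p = 0.00838), and the interaction was -7.74 ± 1.28 (adjusted p = 0.0764). Other genes overlap 11.5% of the exonic bases of Pecr and 10.7% of those of Rfc5, and whether strand was used in counting is not given in the sources used here.

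Inka1 (chr9:107984223-107985879), an inhibitor of the kinase PAK4, had more than 3 counts in every library. It was at 166, 148 and 155 CPM in BM after saline, 181, 87.7 and 132 CPM in BM after sepsis, 2.03, 0.743 and 0.858 CPM in the spleen after saline and 14.9, 27.1 and 16.9 CPM in the spleen after sepsis. It rose in the spleen by 4.03 log2 units (adjusted p = 0.0200), to a level that stayed below every BM library, and the interaction was -4.26 ± 0.87 (adjusted p = 0.234). Khk (chr5:30921431-30931248), which encodes ketohexokinase of fructose metabolism, was at 36.0 to 68.8 and 31.4 to 96.4 CPM in BM after saline and sepsis. It rose in the spleen from 0, 0.165 and 0.322 CPM to 6.79, 5.38 and 37.0 CPM (adjusted p = 0.0307), and the interaction was -6.10 ± 1.42 (adjusted p = 0.339). Per3 (chr4:151003652-151044665), a component of the circadian clock, had 2 counts in all over the spleen saline libraries and 6.53, 14.6 and 18.4 CPM in the spleen after sepsis, 167-fold more by summed counts (95% exact interval for counting error 45.9 to 1380).

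D6Wsu163e (chr6:126939962-126975967) rose in the spleen from 0.135 to 0.215 CPM to 18.1, 15.4 and 38.7 CPM (adjusted p = 0.0400), and its interaction was -7.70 ± 1.64 (adjusted p = 0.246). Actl6a (chr3:32706298-32726973), a subunit of SWI/SNF chromatin remodelling complexes, was lower in every BM sepsis library (17.2 to 23.6 CPM) than in every BM saline library (36.9 to 50.2 CPM) and higher in every spleen sepsis library (31.6 to 41.1 CPM) than in every spleen saline library (0.413 to 4.32 CPM). Its interaction was -5.60 ± 1.32 (adjusted p = 0.343), and other genes overlap 11.6% of its exonic bases. A830005F24Rik (chr13:48513570-48514859) was at 8.42, 4.08 and 11.95 CPM in BM after saline and at 0 in all 3 BM sepsis libraries, at least 44.0-fold lower on group means with 3 counts as the floor of each library. In the spleen it was at 0 in all 3 saline libraries and at 38.1, 27.3 and 0 CPM after sepsis, at least 67.1-fold higher on the same scale. The adjusted p of its interaction was 0.234.

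**Figure D2:**
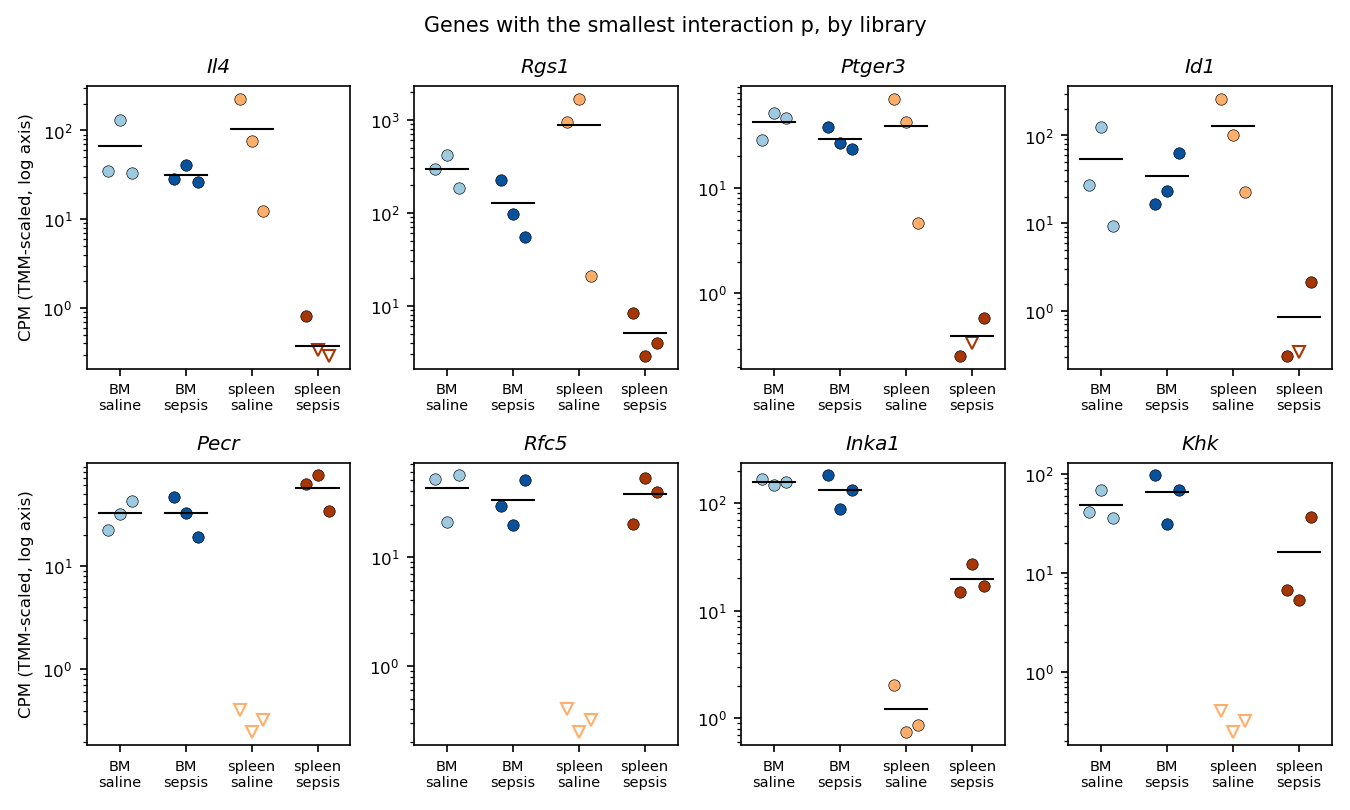
CPM (scaled with TMM factors, log axis) of 8 of the genes with the smallest interaction p in each of the 12 libraries, with 3 libraries per group and the group mean as a bar. Open triangles mark libraries with 3 counts or fewer, drawn at the limit that 3 counts give. The BM groups overlap in all 8 genes, and the spleen groups do not overlap in any of them. The genes were chosen by the interaction in these libraries, so their separation in the spleen is no separate test. Of all tested genes, 4.95% had every spleen sepsis library above and 4.51% below every spleen saline library. Clec4a2, Actl6a and A830005F24Rik, whose BM groups do not overlap, are among the genes not shown.

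The count of called genes moved with every library that was left out. It was 13, 16 and 20 without BM saline replicates 1, 2 and 3, and 39, 20 and 22 without BM sepsis replicates 1, 2 and 3. It was 10, 3 and 48 without spleen saline replicates 1, 2 and 3, and 26, 20 and 42 without spleen sepsis replicates 1, 2 and 3. In each of these fits 1 group was left with 2 libraries and more genes passed the filter (23354 to 26112). Over the 12 fits 136 of 279 calls (48.7%) were immunoglobulin segments, 2 to 19 in each fit, and Ighg3 and Igkv4-57 were called in 11 fits. Such segments were a small part of the genes tested. With all 12 libraries 20263 genes were tested, and 19547 without immunoglobulin and T cell receptor segments. Among the 16 genes above, Pecr was called in 11 of these 12 fits, Clec4a2 in 10, Rfc5 and A830005F24Rik in 9, Rgs1 in 7 and Il4 in 6, whereas D6Wsu163e, Per3 and Khk were called in 0. The sign was the same in all 12 fits for each of the 16 genes. The 16 were ranked on these same 12 libraries, so such counts show dependence on single libraries and are no separate test. In the spleen alone, the calls of Il4, Trim13, Rgs1, Ptger3, Rapsn, Id1, Arrdc4, Pecr, Rfc5, Inka1 and Khk held in all 12 fits. The call of Clec4a2 was lost without spleen saline replicate 1 or without spleen sepsis replicate 1 or 2 (highest adjusted p 0.0660), and that of D6Wsu163e without spleen saline replicate 1 or 2 (0.0757). The call of Per3 was lost without BM saline replicate 1 or 3, BM sepsis replicate 1, or spleen saline replicate 1 or 2 (0.0805). Without both spleen libraries numbered 1 the spleen calls of Clec4a2, Trim13, Ptger3, Id1, Arrdc4, D6Wsu163e and Per3 were lost. With limma-voom none of the 14 spleen calls passed. The stricter filter lost those of Clec4a2, Id1, Arrdc4 and Per3, thinning those of Clec4a2, Trim13 and Per3, robust dispersion those of Rgs1 and Per3, library size alone that of Clec4a2 and RLE factors that of Per3. DESeq2, run on the same libraries that ranked them, called the interaction of all 16 genes.

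**Figure D3:**
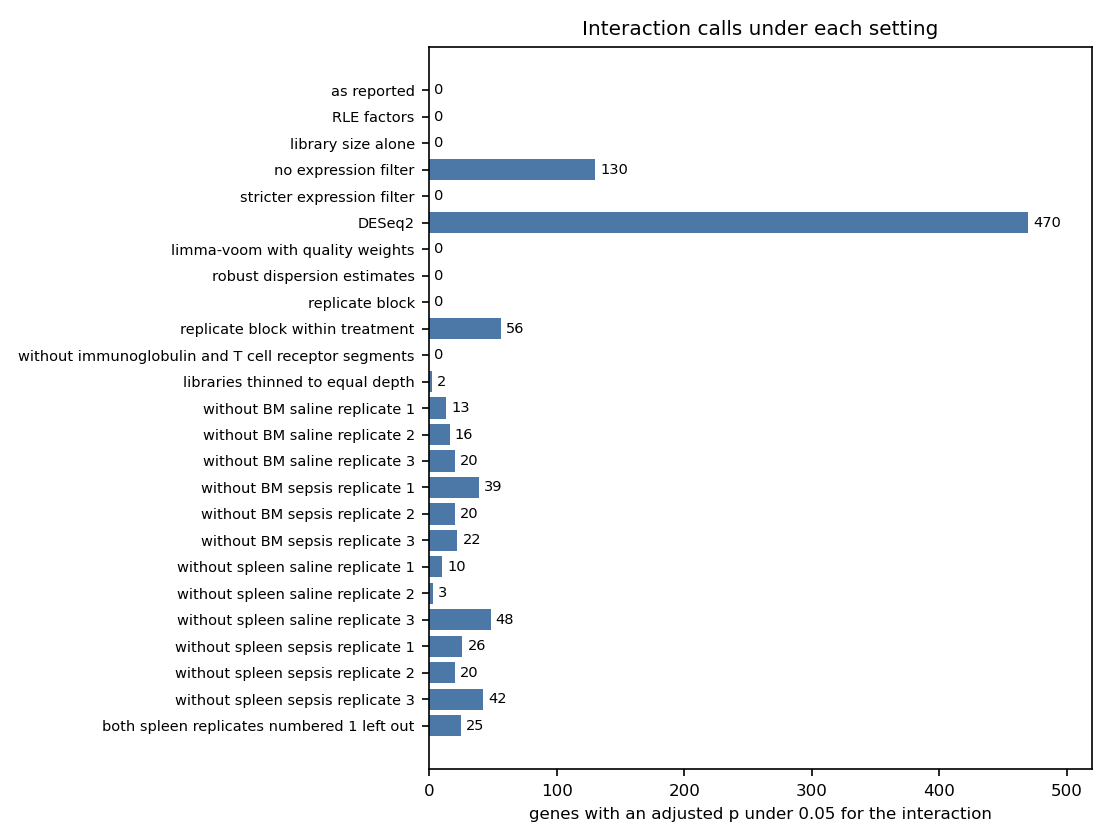
Number of genes with an adjusted p under 0.05 for the interaction (horizontal axis, linear from 0) as reported and under each other setting, 1 bar per setting. The count is 0 as reported and 3 to 48 with 1 library left out, and it is largest with DESeq2, at 470.

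The genes were then read in 18 lists that stand for MK functions, for other blood cell types and for cell states. No tested member of any list was called for the interaction by edgeR. At an unadjusted p under 0.05, 4.25% of all tested genes had a positive interaction and 3.42% a negative one. The highest medians belonged to the neutrophil (6.14), monocyte and macrophage (2.35), basophil and mast cell (2.04) and inflammatory cytokine and chemokine (1.84) lists, and the lowest to the MHC class II (-1.58), mitosis (-1.28) and B cell (-1.10) lists. The markers of other cell types were measured in cells gated against CD11b, F4/80, B220, CD3 and NK1.1. In bulk libraries fewer cells of a type and less RNA of that type per cell cannot be told apart.

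**Figure D4:**
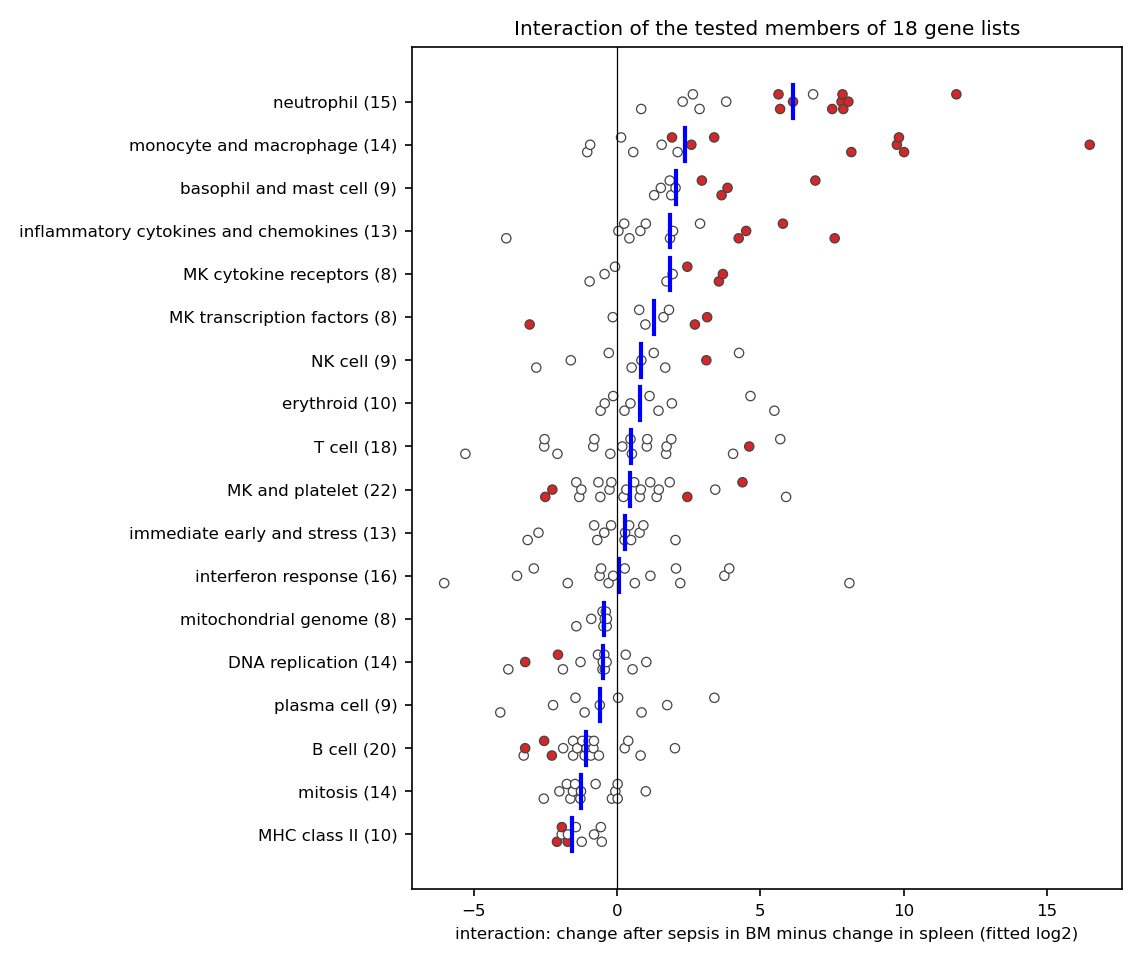
Interaction (change after sepsis in BM minus change in spleen, fitted log2) of each tested member of the 18 lists, 1 circle per gene, with the number of tested members in brackets and the list median as a blue bar. Filled circles have an unadjusted p under 0.05: all 15 neutrophil and all 9 basophil and mast cell genes lie to the right of 0, and all 10 MHC class II genes to the left.

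The 9 genes of the basophil and mast cell list had lower fitted levels after sepsis in both tissues, with a median change of -1.44 in BM and -4.59 in spleen. All 9 interactions were positive (48.5% of all tested genes were), 4 of them at an unadjusted p under 0.05 (4.25%). DESeq2 called 1 of 8 (Il4), against 2.42% of all its genes. In the spleen 8 of the 9 genes had every sepsis library below every saline library (4.51% of all tested genes did), and in BM 3 of 9 did (4.16%). The exception in the spleen was Prss34. Basophils and mast cells share the high-affinity IgE receptor and granule proteases, and their progenitors share the factor GATA2 with the MK lineage.

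Cpa3, the granule carboxypeptidase of these cells, was at 716, 2188 and 479 CPM in BM after saline and 518, 138 and 625 CPM in BM after sepsis. In the splenic libraries it was at 742, 408 and 268 CPM after saline and 6.58, 3.81 and 32.6 CPM after sepsis. It fell by 5.04 log2 units in the spleen (adjusted p = 0.0307, not called with the stricter filter or limma-voom), and the interaction was 3.64 ± 1.10 (adjusted p = 0.543). Ms4a2, the beta chain of the IgE receptor, fell in the spleen from 187, 578 and 47.6 CPM to 2.67, 4.48 and 16.98 CPM (adjusted p = 0.0400, and 0.0531 without spleen saline replicate 2, and not called with library size alone, the stricter filter or limma-voom). In BM it was at 72.3 to 506 CPM after saline and 93.8 to 141 CPM after sepsis, and the interaction was 3.85 ± 1.20 (adjusted p = 0.543). The groups overlapped in BM and not in the spleen for both genes.

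Fcer1a, the alpha chain of the same receptor, was at 440 to 1363 CPM in BM after saline and 82.6 to 201 CPM after sepsis, without overlap. The spleen libraries were at 269 to 1037 CPM after saline and 5.35, 2.02 and 67.2 CPM after sepsis, and the interaction was 2.04 ± 1.24 (adjusted p = 0.677). Mcpt8, the basophil marker mast cell protease 8, was at 2155 to 13208 CPM in BM after saline, 1080 to 2622 CPM in BM after sepsis, 858 to 1527 CPM in spleen after saline and 12.7 to 262 CPM in spleen after sepsis. Prss34, another basophil protease, was at 207 to 907 CPM in spleen after saline and 8.63 to 245 CPM after sepsis. Their interactions were 1.89 ± 1.11 and 1.29 ± 1.23. Cd200r3, an activating receptor of these cells, had an interaction of 2.95 ± 1.24, and Hdc, the histamine-forming enzyme, one of 1.83 ± 0.97.

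The summed level of the list was 5188 to 29546 CPM in BM after saline, 2839 to 6772 CPM in BM after sepsis, 3243 to 5391 CPM in spleen after saline and 49.97 to 746 CPM in spleen after sepsis. Spleen sepsis replicate 3, the library with few mitochondrial reads, held the 746 CPM, and the other spleen sepsis libraries held 96.1 and 49.97 CPM. Without it all 9 members were at an unadjusted p under 0.05, 4 were called (Cpa3, Mcpt8, Fcer1a and Cd200r3) and the median interaction was 4.75. Over the 25900 genes tested in that fit, 1591 were positive at that level and 42 were called. Leaving out the other libraries gave medians of 1.59 to 2.86.

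The 100 bases before the annotated start are shown for 3 of these genes (RefSeq, GRCm38.p6, 5′ to 3′ on the strand of the gene), since all 9 members had lower fitted levels in both tissues and GATA factors act in this lineage. Capitals mark the GATA factor sequence AGATAA or its reverse complement TTATCT. The windows are chr3:20242182-20242281 (minus strand) for Cpa3, chr19:11623720-11623819 (minus strand) for Ms4a2 and chr16:44943578-44943677 (plus strand) for Cd200r3.
Cpa3: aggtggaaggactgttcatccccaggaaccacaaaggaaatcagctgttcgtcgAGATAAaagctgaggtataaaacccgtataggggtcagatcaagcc
Ms4a2: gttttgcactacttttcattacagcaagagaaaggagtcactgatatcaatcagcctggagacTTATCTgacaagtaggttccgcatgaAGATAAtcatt
Cd200r3: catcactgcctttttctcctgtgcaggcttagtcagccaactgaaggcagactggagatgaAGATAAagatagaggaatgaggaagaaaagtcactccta
From 250 bases before to 50 after the start, AGATAA was present on either strand for 5 of the 9 members, against 11.2% of 32851 RefSeq promoters. Here and below a gene counts if any of its promoters matches. The percentages are over single promoters (32851 for 27025 genes), so the shares are not alike. TGATAA was present for 2 of 9 (9.05% of promoters), and a longer GATA sequence that contains it for 0 of 9 (0.067%). A match describes these letters and is not evidence of binding.

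The inflammatory list also had lower fitted levels after sepsis in both tissues, with a median change of -2.09 in BM and -3.96 in spleen. Of 13 genes, 12 had a positive interaction and 4 of these were at an unadjusted p under 0.05 (4.25% of all tested genes). The median interaction of 1.84 was 0.86 with libraries thinned to equal depth. In BM 5 of 13 had every sepsis library below every saline library (4.16% of all tested genes did), and in the spleen 5 of 13 did (4.51%). Ccl4 encodes a chemokine for T cells and monocytes, and was at 649, 1267 and 472 CPM in BM after saline and 101, 26.9 and 152 CPM in BM after sepsis. In the spleen Ccl4 was at 2880, 1699 and 405 CPM after saline and 3.80, 2.91 and 19.1 CPM after sepsis. The groups did not overlap in either tissue, Ccl4 fell by 7.59 log2 units in the spleen (adjusted p = 0.00667, not called with limma-voom), the fitted BM change of -3.09 was not called, and the interaction was 4.50 ± 1.13 (adjusted p = 0.401).

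Ccl3, the neighbouring chemokine gene on chromosome 11, fell by 6.54 log2 units in the spleen (adjusted p = 0.0133, not called with robust dispersion or limma-voom), from 3838, 2891 and 467 CPM to 6.48, 4.59 and 66.2 CPM. It was at 648 to 1834 CPM in BM after saline and 138 to 346 CPM in BM after sepsis, and the interaction was 4.24 ± 1.21 (adjusted p = 0.543). Leaving out spleen sepsis replicate 3 brought both chemokines past the threshold for the interaction, with adjusted p of 0.00587 for Ccl4 and 0.000956 for Ccl3. Over the 12 fits with 1 library left out Ccl4 was called in 4 and Ccl3 in 1. Il1b, the cytokine interleukin 1 beta, differed from them in BM: it was at 12.8, 12.8 and 43.8 CPM after saline and 75.4, 32.2 and 28.5 CPM after sepsis. In the spleen Il1b was at 18.1, 0.248 and 13.3 CPM after saline and 0.0514, 0 and 1.07 CPM after sepsis, and the interaction was 5.79 ± 1.96 (adjusted p = 0.543). The summed level of the inflammatory list was 1337 to 3637 CPM in BM after saline, 276 to 634 CPM in BM after sepsis, 1261 to 9965 CPM in spleen after saline and 165 to 357 CPM in spleen after sepsis. The NF-kB consensus was searched in 2 spellings. Of these, 1 was present for 6 of the 11 genes of the list with a promoter (1.63% of all promoters), and the other for 0 of 11 (0.527%).

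All 15 neutrophil genes had a positive interaction, 9 of them at an unadjusted p under 0.05 (4.25% of all tested genes). Of the 15, edgeR called 0. DESeq2 called 0 of the 13 to which it gave an adjusted p, and S100a9 and Ngp were not among these. Without the filter on low counts edgeR called 7 of the 15. The median change was 4.99 in BM and -1.08 in spleen. In BM 7 of 15 had every sepsis library above every saline library (4.79% of all tested genes did), and in the spleen 0 of 15 were ordered without overlap in either direction. S100a8, which encodes a calcium-binding protein abundant in neutrophils, was at 22.3, 57.9 and 20.5 CPM in BM after saline and 588, 4740 and 7098 CPM in BM after sepsis. Its splenic level was 9679, 162 and 142 CPM after saline and 5140, 27.5 and 19.3 CPM after sepsis. In the spleen the replicate numbered 1 was thus far above the others in both groups, and in BM replicate 1 was the lowest after sepsis. The interaction of S100a8 was 7.89 ± 2.37 (adjusted p = 0.543), and that of its partner S100a9 was 7.83 ± 2.56. Without spleen saline replicate 1 they were 3.30 and 2.95, and without spleen sepsis replicate 1 they were 14.1 and 14.8 (both called).

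Ngp and Camp, genes of the secondary granules, were at 0.773 to 9.15 and 0.862 to 10.7 CPM in BM after saline and at 8.48 to 642 and 16.6 to 1087 CPM in BM after sepsis. In the spleen Ngp was at 2745 and 1159 CPM in the replicates numbered 1 and at 0.672 to 79.3 CPM in the other 4 libraries. Lcn2, the iron-siderophore binding protein lipocalin 2, had an interaction of 6.14 ± 2.27, which was 0.860 without spleen saline replicate 1 and 10.5 without spleen sepsis replicate 1 (called). The interactions of 3 primary granule genes depended on spleen sepsis replicate 3 or on the BM libraries. Elane, neutrophil elastase, was at 9.37 to 170 CPM in BM after saline and 697 to 4305 CPM after sepsis, with an interaction of 2.87 ± 1.63 (1.81 without BM sepsis replicate 3 and 5.08 without BM saline replicate 1). Mpo, myeloperoxidase, was at 3.34 to 66.3 CPM in BM after saline and 141 to 862 CPM after sepsis, with an interaction of 0.84 ± 1.92, and other genes overlap 14.95% of its exonic bases. Prtn3, proteinase 3, was at 38.9 to 74.7 CPM in BM after saline and 412 to 2544 CPM after sepsis, with an interaction of 2.64 ± 1.81. Spleen sepsis replicate 3 held 92.5 CPM of Mpo and 87.6 CPM of Prtn3, and without it Mpo was at 7.85 (adjusted p = 0.00884) and Prtn3 at 8.79 (adjusted p = 0.00116). The spleen replicates numbered 1 were not high for these genes, since Elane was at 5.81 and 0.154 CPM there and Mpo at 1.62 and 0.154 CPM. The surface marker Ly6g was listed at 0 in 6 of the 12 libraries and did not exceed 13.98 CPM.

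The summed neutrophil level was 152 to 361 CPM in BM after saline and 2686 to 19547 CPM in BM after sepsis, 348 to 21866 CPM in spleen after saline and 72.6 to 10701 CPM in spleen after sepsis. Without both spleen libraries numbered 1 the median interaction was 7.26, with 15 of 15 positive and 4 called. Without spleen saline replicate 1 alone it was 3.64, with 2 genes at an unadjusted p under 0.05. Without spleen sepsis replicate 1 alone it was 10.5, with 6 called, and without BM sepsis replicate 1 it was 6.65, with 3 called. Without spleen sepsis replicate 3 it was 7.23, with 2 called (Mpo and Prtn3). Over all tested genes the fits without spleen sepsis replicate 1, BM sepsis replicate 1 and spleen sepsis replicate 3 called 26, 39 and 42. The C/EBP sequence TTGCNNAA was present for 7 of the 14 neutrophil genes with a promoter (10.8% of all promoters). Its palindrome TTGCGCAA was present for 0 of 14 (0.183%), and the PU.1 sequence GAGGAAGT for 6 of 14 (3.20%).

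Of the 14 tested monocyte and macrophage genes, 12 had a positive interaction and 8 of these were at an unadjusted p under 0.05 (4.25% of all tested genes). DESeq2 called 4 of 11, against 2.42% of all its genes. The median change was 1.57 in BM and -1.75 in spleen. Vcam1, an adhesion molecule of macrophages and stroma that binds the integrin VLA4, was at 3.01, 0.398 and 1.18 CPM in BM after saline and 7.37, 7.99 and 11.6 CPM after sepsis. Among spleen libraries it was at 2.703, 7.01 and 70.8 CPM after saline and 0, 0.448 and 0.0971 CPM after sepsis. It was the only member of any list with BM sepsis above and spleen sepsis below without overlap, and its interaction was 9.76 ± 2.49 (adjusted p = 0.428). Ly6c2, a surface protein of inflammatory monocytes with a near-identical neighbour (Ly6c1) that may share its reads, was at 42.4, 118 and 154 CPM in BM after saline and 277, 271 and 830 CPM after sepsis, also without overlap. In the splenic libraries it was at 1046, 283 and 780 CPM after saline and 350, 341 and 195 CPM after sepsis, and the interaction was 3.39 ± 0.89 (adjusted p = 0.450).

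Csf1r, the receptor for the macrophage growth factor CSF1 (15.1% of its exonic bases overlap other genes), was at 0.344, 6.06 and 0.646 CPM in BM after saline and 15.8, 2.64 and 10.2 CPM after sepsis. The spleen libraries were at 21.6, 0.330 and 25.96 CPM after saline, and the 3 sepsis libraries held 2 counts in all, 272-fold fewer by summed counts (95% exact interval for counting error 74.9 to 2256). C1qb, a chain of complement C1q made by tissue macrophages, was at 0.946 to 46.4 CPM in the spleen after saline and 0 to 0.0971 CPM after sepsis. The summed level of this list was 402 to 1133 CPM in BM after saline, 840 to 1985 CPM in BM after sepsis, 1638 to 2897 CPM in spleen after saline and 416 to 986 CPM in spleen after sepsis. Over the fits with 1 library left out the median was 1.92 to 4.50, with 10 to 13 positive members. GAGGAAGT was present for 2 of the 10 genes of the list with a promoter.

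The B cell and MHC class II lists had medians of the opposite sign. Of 20 B cell genes 16 had a negative interaction, 3 of them at an unadjusted p under 0.05 (3.42% of all tested genes). The median change was -0.50 in BM and 0.54 in spleen. Cd79a, a signalling chain of the B cell receptor, was at 85.0, 61.1 and 36.9 CPM in BM after saline and 13.1, 6.12 and 7.44 CPM in BM after sepsis, without overlap. Its splenic level was 1422, 700 and 1928 CPM after saline and 2829, 2525 and 125 CPM after sepsis, and the interaction was -3.21 ± 1.05 (adjusted p = 0.543, and 0.00587 without spleen sepsis replicate 3). Ms4a1, which encodes CD20, was at 23.8 to 37.6 CPM in BM after saline and 3.79 to 13.3 CPM after sepsis. Among spleen libraries it was at 781 to 1738 CPM after saline and 2759, 2585 and 704 CPM after sepsis, and the interaction was -2.55 ± 0.82 (adjusted p = 0.543). Cd79b, the partner of Cd79a, had an interaction of -1.54 ± 0.74. The summed level of the list was 307 to 543 CPM in BM after saline, 155 to 285 CPM in BM after sepsis, 6721 to 14759 CPM in spleen after saline and 5644 to 19404 CPM in spleen after sepsis.

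All 10 genes of MHC class II antigen presentation had a negative interaction, 3 of them at an unadjusted p under 0.05 (3.42% of all tested genes). DESeq2 called 0 of the 10. The median change was -1.24 in BM, where all 10 were lower, and 0.30 in spleen, where 9 were higher. H2-Ab1, the beta chain of I-A, was at 103, 76.3 and 43.6 CPM in BM after saline and 31.4, 15.1 and 35.9 CPM in BM after sepsis, without overlap. In the splenic libraries it was at 1686, 1334 and 2706 CPM after saline and 3314, 2803 and 895 CPM after sepsis, and the interaction was -1.73 ± 0.76 (adjusted p = 0.628). H2-Aa, the alpha chain, had an interaction of -1.72 ± 0.84, H2-DMb2, a chain of the peptide loading factor DM, one of -1.93 ± 0.83, and Cd74, the invariant chain, one of -2.10 ± 1.001. In BM 4 of the 10 genes had every sepsis library below every saline library (4.16% of all tested genes did), and in the spleen 0 of 10 were ordered without overlap. Spleen sepsis replicate 3 was the lowest spleen library of the list, at 6355 CPM against 12485 to 34919 CPM in the other 5, and without it the median interaction was -2.001 with 5 members at an unadjusted p under 0.05. Without both spleen libraries numbered 1 the median was -0.99 with 0 members at that level.

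MHC class II promoters carry a Y box, whose core is an inverted CCAAT sequence. CTGATTGG was present for 3 of the 7 genes of the list with a promoter (4.10% of all promoters). For 2 of them the window is shown, with that sequence in capitals, as chr17:34287824-34287923 (minus strand) for H2-Aa and chr17:34305767-34305866 (plus strand) for H2-Eb1.
H2-Aa: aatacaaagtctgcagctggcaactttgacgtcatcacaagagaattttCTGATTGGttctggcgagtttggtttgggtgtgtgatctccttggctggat
H2-Eb1: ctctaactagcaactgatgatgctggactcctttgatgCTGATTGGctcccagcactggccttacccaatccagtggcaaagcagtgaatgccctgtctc

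**Figure D5:**
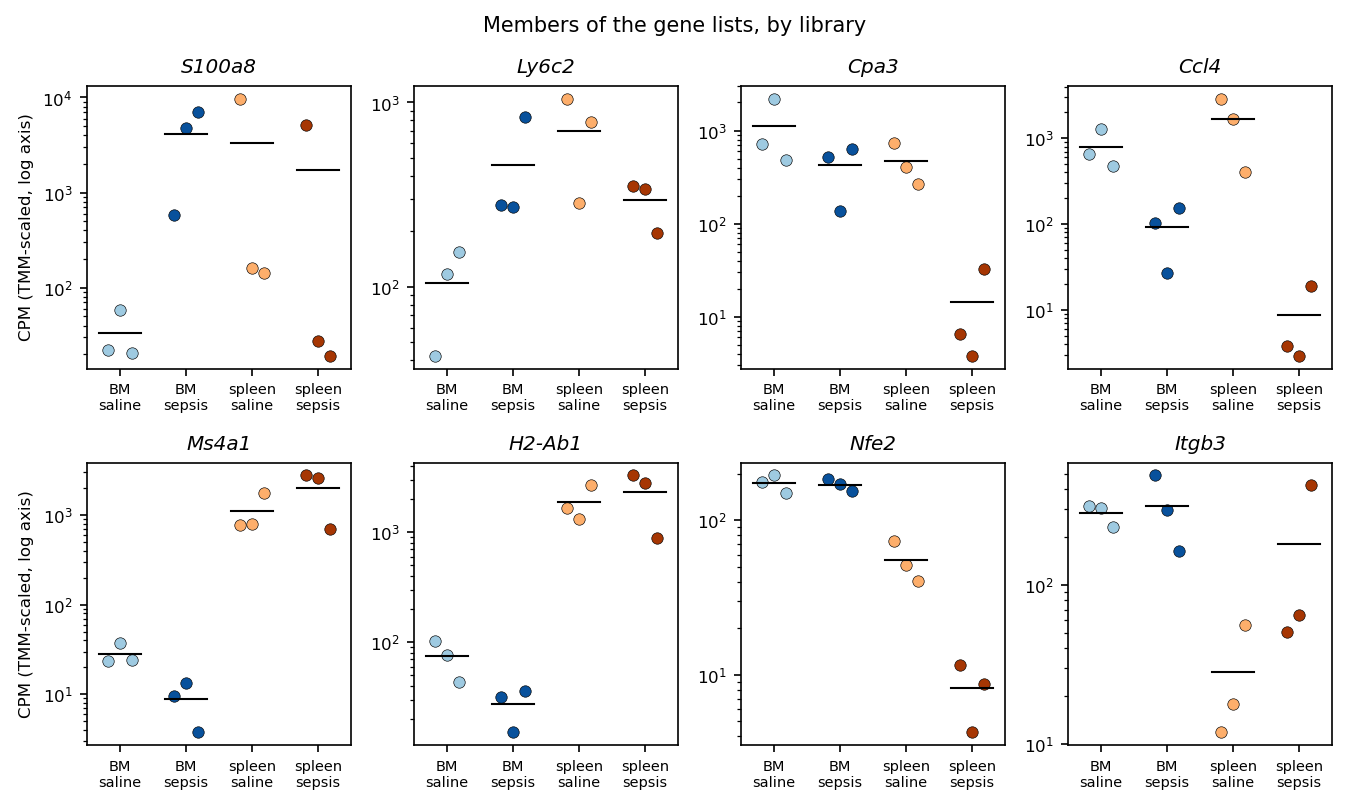
CPM (scaled with TMM factors, log axis) of 8 members of the gene lists in each of the 12 libraries, with 3 libraries per group and the group mean as a bar. S100a8 and Ly6c2 are higher in every BM sepsis library than in every BM saline library, Ms4a1 and H2-Ab1 are lower, and Cpa3, Ccl4 and Nfe2 are lower in every spleen sepsis library than in every spleen saline library.

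The MK and platelet list itself showed no common direction. Of 22 MK and platelet genes 13 had a positive interaction, with a median of 0.46, and 2 were at an unadjusted p under 0.05 in each direction. Among them were P2ry1 (positive) and Itgb3 and Treml1 (negative). P2ry1, the ADP receptor P2Y1 of platelets, was at 112 to 225 CPM in BM after saline and 103 to 220 CPM after sepsis. The spleen libraries were at 10.5, 165 and 5.69 CPM after saline and 4.58, 1.12 and 1.75 CPM after sepsis, and its interaction of 4.37 ± 1.34 (adjusted p = 0.543) was 1.48 without spleen saline replicate 2, the library at 165 CPM. Other genes overlap 23.1% of its exonic bases.

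Itgb3, the integrin beta 3 chain of the fibrinogen receptor, was at 233 to 314 CPM in BM after saline and 164 to 488 CPM after sepsis. Among spleen libraries it was at 11.9, 17.9 and 55.7 CPM after saline and 50.7, 64.8 and 427 CPM after sepsis, and its interaction was -2.51 ± 1.06 (adjusted p = 0.619). Itga2b, the CD41 chain that pairs with it and was used for the sort, was at 23.0, 28.5 and 93.4 CPM in the spleen after saline and 6.43, 19.2 and 320.5 CPM after sepsis. Its interaction of -1.25 ± 1.32 turned to 1.92 without spleen sepsis replicate 3, which held the 320.5 CPM. Without that library the interaction of Itgb3 was -0.88. Treml1, a receptor of platelet alpha granules, had an interaction of -2.26 ± 1.07. The interaction of Pf4 was 0.82 ± 0.77, with sign turned to -0.31 without spleen saline replicate 3, the spleen library with most Pf4.

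Of the 8 MK transcription factors 6 had a positive interaction, with a median of 1.30 (1.12 to 1.79 with 1 library left out). Nfe2 was at 176, 195 and 151 CPM in BM after saline and 186, 171 and 155 CPM in BM after sepsis. In the splenic libraries it was at 73.7, 51.6 and 40.3 CPM after saline and 11.7, 4.26 and 8.73 CPM after sepsis, without overlap. Its fitted change was -0.03 in BM and -2.74 in spleen (adjusted p = 0.0777), and the interaction was 2.71 ± 0.78 (adjusted p = 0.543, and 0.0456 in DESeq2). Tal1 was at 102 to 158 and 82.6 to 153 CPM in BM after saline and sepsis. In the spleen Tal1 was at 10.8, 21.9 and 11.5 CPM after saline and 0.463, 1.57 and 2.81 CPM after sepsis, and its interaction was 3.14 ± 0.96 (adjusted p = 0.543). Gata1 had an interaction of 1.81 ± 1.06. Zfpm1, which encodes the GATA1 cofactor FOG1, went the other way, at 1.22, 0.330 and 0.751 CPM in the spleen after saline and 3.598, 3.14 and 18.2 CPM after sepsis, with an interaction of -3.06 ± 1.31 (adjusted p = 0.624), or -1.77 without spleen sepsis replicate 3. In the spleen 3 of the 8 genes had every sepsis library below every saline library (4.51% of all tested genes did), and 1 (Zfpm1) had every sepsis library above (4.95%). The NF-E2 sequence TGACTCA was present for 0 of the 6 genes of this list with a promoter (5.20% of all promoters).

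Of the 8 cytokine receptor genes 5 had a positive interaction, with a median of 1.83 (1.39 to 2.21 with 1 library left out). Positive at an unadjusted p under 0.05 were 3, Kit and Csf2rb2 among them (4.25% of all tested genes). Kit, the receptor for stem cell factor, was at 11.3 to 65.6 and 20.9 to 59.8 CPM in BM after saline and sepsis. The spleen libraries were at 3.24, 42.1 and 7.30 CPM after saline and 2.31, 1.79 and 0.194 CPM after sepsis, and the interaction was 3.69 ± 1.52 (adjusted p = 0.598), or 1.96 without spleen saline replicate 2, the library at 42.1 CPM. Csf2rb2, a receptor chain for interleukin 3 with a close copy (Csf2rb) that may share its reads, was at 37.0 to 88.9 and 14.7 to 49.0 CPM in BM after saline and sepsis. Its splenic level was 65.1, 46.6 and 124 CPM after saline and 0.360, 0.224 and 11.2 CPM after sepsis, with an interaction of 3.55 ± 1.499 (adjusted p = 0.617), or 7.20 without spleen sepsis replicate 3 (adjusted p = 0.0106).

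Proliferation genes had mostly negative interactions, few of them past any threshold. Of 14 DNA replication genes 11 were negative, with a median of -0.51 and 2 at an unadjusted p under 0.05. Of 14 mitosis genes 11 were negative, with a median of -1.28 and 0 at that level. The mitosis median was -3.22 without spleen saline replicate 3 (1 gene called), -0.46 without spleen sepsis replicate 3 and -0.28 without both spleen libraries numbered 1, and that of DNA replication was -1.88 without spleen saline replicate 3. In the spleen 13 of 14 genes of each list had a higher fitted level after sepsis. Mcm5 and Mcm6, subunits of the replicative helicase, were at 68.9 to 102 and 157 to 159 CPM in BM after saline. In the spleen Mcm5 was at 2.84, 3.30 and 11.6 CPM after saline and 19.2, 10.5 and 178 CPM after sepsis, and Mcm6 was at 19.9, 1.40 and 19.7 CPM after saline and 51.7, 52.6 and 80.7 CPM after sepsis. Their interactions were -3.21 ± 1.23 and -2.07 ± 0.98 (adjusted p = 0.557 and 0.646), and that of Mcm5 was -1.01 without spleen sepsis replicate 3. Mki67, the proliferation marker Ki67, was at 7.43, 52.6 and 59.6 CPM in the spleen after saline and 87.0, 71.4 and 232 CPM after sepsis, without overlap, against 78.2 to 183 and 108 to 161 CPM in BM after saline and sepsis. It was the 1 mitosis gene of 14 with spleen groups that did not overlap. Of all tested genes, 4.95% had every spleen sepsis library above and 4.51% below every saline library. Its interaction was -1.76 ± 0.98 (adjusted p = 0.671), or -1.07 without spleen sepsis replicate 3. Ccnb2, a mitotic cyclin, had one of -2.56 ± 1.36, or -5.17 without spleen saline replicate 3. The summed mitosis level was 1991 to 2452 CPM in BM after saline and 1998 to 2315 CPM in BM after sepsis, and it was 24.2, 284 and 912 CPM in spleen after saline and 1313, 689 and 918 CPM in spleen after sepsis.

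The other lists had medians from -0.61 (plasma cell) to 0.84 (NK cell). The interferon response list had 8 of 16 genes positive, with a median of 0.06 and 0 genes at an unadjusted p under 0.05. The immediate early and stress list had 7 of 13 positive (median 0.26), the erythroid list 7 of 10 (0.80, or 0.36 with groups at 0 set to 3 counts per library), the plasma cell list 4 of 9 (-0.61) and the mitochondrial genome 0 of 8 (-0.46), all without a gene at that level. Without spleen sepsis replicate 3 the mitochondrial median was -0.97 with 6 of 8 genes at that level, and without both spleen libraries numbered 1 it was -0.02 with 4 of 8 positive. The interferon median ran from -0.67 (without BM sepsis replicate 1) to 0.47 (without spleen sepsis replicate 2). The T cell list had 11 of 18 positive (0.49), with Cd28, a costimulatory receptor, at 4.61 ± 2.13 as the 1 gene at that level. Its median was 1.18 without BM saline replicate 1, 0.97 without BM saline replicate 2, 1.01 without spleen saline replicate 3, 0.17 without spleen sepsis replicate 3, -0.003 without BM saline replicate 3, -0.35 without spleen saline replicate 1 and -0.71 without BM sepsis replicate 1. The NK cell list had 6 of 9 positive (0.84), with Nkg7, a granule protein of cytotoxic cells, at 3.11 ± 0.88 (adjusted p = 0.543). Nkg7 was at 719 to 1274 and 734 to 1199 CPM in BM after saline and sepsis, and in the spleen at 1357, 821 and 282 CPM after saline and 130, 135 and 25.4 CPM after sepsis, without overlap. Cd40lg, which encodes CD40 ligand, had too few counts to be tested: 134, 0 and 0 in the spleen after saline, 0, 0 and 49 in the spleen after sepsis, 4, 0 and 0 in BM after saline and 0 in each BM sepsis library. Selp, the platelet adhesion receptor P-selectin, had an interaction of 3.42 ± 1.73 (adjusted p = 0.666, with 14.1% of its exonic bases overlapped by other genes), and Ptprc, which encodes CD45, one of -0.60 ± 0.67.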

How the data were processed

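MKs sorted from BM and spleen were profiled with SMART-Seq HT cDNA and Nextera XT libraries, and the authors deposited raw counts of reads per gene for 12 libraries. The submitters' processing notes name STAR 2.7.2b, R 3.6.1, DESeq2 1.26 and GRCm38. Which annotation, counting options and read filters were used is not given in the sources used here. Columns were matched to samples by their labels. Positions came from GENCODE M21 on GRCm38.

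Genes were kept with edgeR's filterByExpr (minimum count 10), TMM factors scaled the libraries, and the fit had 1 mean per group (8 residual degrees of freedom). The interaction and the change in each tissue were tested with edgeR's quasi-likelihood F test (edgeR 4.0.16, limma 3.58.1, DESeq2 1.42.0, R 4.3.3), with Benjamini-Hochberg adjustment over all tested genes and a threshold of 0.05. The SE is the size of the log2 change divided by the square root of F. Groups do not overlap where all 3 libraries of one lie above all 3 of the other. The code was tested on simulated data. Python 3.11.15 with pandas 2.3.3 and matplotlib 3.10.9 drew the plots.

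Named genes were the 8 per direction with the smallest interaction p (protein coding, at least 20 CPM in 1 group), the first 2 and the 2 with the smallest p of each list, and the fixed genes (Cd40lg, Selp, Il3ra, Ptprc, Pf4, Itga2b, Gp1ba). Ngp, Camp, Lcn2, Elane, Mpo, Prtn3, Ighg3, Igkv4-57, Ly6g, C1qb, Ms4a2, Fcer1a, Cd200r3, Hdc, H2-Eb1, Zfpm1, Csf2rb2, Itgb3 and Treml1 were chosen after their values were seen. The members, lists and tests were chosen with earlier results of these data known, and the 11 motif searches, on both strands of RefSeq promoters (GRCm38.p6), after the lists had been seen. Members not tested for low counts were C1qa, Klrb1c, Alas2 and Rhag, and Ahsp had no entry in the annotation. The mitochondrial genes mt-Nd4l, mt-Co2, mt-Co3, mt-Atp6 and mt-Atp8 were at 0 in all 12 libraries and were not tested.

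Alternatives were RLE factors, library size alone, no filter or at least 10 counts in 6 libraries, DESeq2, limma-voom, robust dispersion, a replicate block, no immunoglobulin or T cell receptor segments, thinning to equal depth, and each library left out. Leaving out both spleen libraries numbered 1 was chosen after seeing the data. Some genes covered by the naming rule are not reported here.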

Additional observations from a re-analysis of the deposited data

How the results depend on the processing

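The count of 0 genes for the interaction was the same with RLE factors, library size alone, the stricter filter, limma-voom, robust dispersion, the replicate block and without immunoglobulin and T cell receptor segments. It was 130 without the filter, 470 with DESeq2, 2 after thinning, 25 without both spleen libraries numbered 1, and 3 to 48 with 1 library left out. Positive genes at an unadjusted p under 0.05 (862 as reported) were 2262 without the filter, 414 with the stricter filter, 1423 without both libraries and 880 to 1591 with 1 left out, and negative ones (694) were 1769, 420, 1118 and 809 to 1554. The BM count (0) was 81 without the filter, 220 with DESeq2, 15 without both libraries and 0 to 12 with 1 left out. The spleen count (32) was 187 without the filter, 20 with the stricter filter, 931 with DESeq2, 0 with limma-voom, 50 without both libraries and 48 to 138 with 1 left out. RLE factors moved the median interaction of all genes from -0.07 to 0.06.

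Whether libraries of equal number shared a mouse was not tested. Deviations from the group means correlated at -0.0566 to 0.0447 over the 18 pairs of libraries of equal number. With 3 libraries per group and a biological coefficient of variation of 143%, such values cannot tell which libraries shared a mouse. With the replicate number as a block, 0 genes were called, with 539 positive and 454 negative at an unadjusted p under 0.05. With the replicate block within treatment, 56 were called, with 297 and 343, and the medians of the neutrophil, basophil and DNA replication lists were 8.50, 3.42 and -1.45. That fit called 9 neutrophil, 4 basophil and 2 inflammatory genes. The block lost the spleen calls of Arrdc4, D6Wsu163e and Per3. The fit within treatment gives no change within a tissue.

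With 1 library left out, list medians ran from 3.64 to 10.5 (neutrophil), 1.59 to 4.75 (basophil and mast cell), 1.92 to 4.50 (monocyte and macrophage), -0.45 to 0.88 (MK and platelet), -1.83 to 2.74 (NK cell), -2.53 to 2.66 (erythroid), -3.22 to -0.46 (mitosis), -1.88 to -0.40 (DNA replication) and -1.07 to 0.16 (plasma cell). The basophil median was 4.23 with limma-voom, and the immediate early median -0.41 without both spleen libraries numbered 1. Among the genes whose interaction the text prints, Pf4 (-0.31 to 1.19 with 1 library left out, negative without spleen saline replicate 3) and Itga2b (0.96 with limma-voom, 0.59 with the replicate block within treatment, -2.16 to 1.92 with 1 library left out, positive without spleen sepsis replicate 3) changed sign. The causes were not tested, beyond the fewer libraries and larger or smaller gene sets that some settings entail. Library overlap was not recomputed with libraries left out. Depth limits the folds of genes at 0, for which 0.105 to 0.405 CPM remain possible.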
